A study of Mus musculus with 4 samples.

Results

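The genes described here are those of epithelial cells, of desmosomes and of the cornified envelope. A list of 38 gene symbols was looked up among the probe sets that the platform annotation assigns to 1 gene, and 36 were found, out of 18193 genes on the array. Dsg3 and Lamp3 were not analysed here. Where a gene had several probe sets, the one brightest on average over the 4 arrays stands for it. The list was built around Scel, Perp and Lce1f, which stood out in the comparison between the 2 groups of this study. Their differences, and those of the other members in the same comparison, are therefore given as a description, without a test.

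Cells came from axillary lymph nodes that drained tumours under the skin of female SCID/NOD mice, an immunodeficient strain, aged 6 to 8 weeks. The metastatic group drained tumours of 293-VEGF-D cells, which overexpress the lymphatic growth factor VEGF-D, and the non-metastatic group drained tumours of 293-Apex cells. The 293 line comes from human embryonic kidney. Each group had 2 preparations with 1 array each, and a preparation pooled nodes of 1 to 5 mice taken 3 to 4 weeks after injection, when tumours measured between 1600 and 2500 mm3. The digested nodes were cultured briefly in endothelial growth medium and selected for podoplanin, which lymphatic endothelium, fibroblastic reticular cells, mesothelium and some epithelia carry. Per the sorting label, the metastatic preparations alone were depleted of tumour cells and leukocytes ahead of culture, while the growth protocol names the depletion without setting the groups apart. Nodes draining metastatic tumours were used only if visibly enlarged. The effects of metastasis, VEGF-D, node enlargement and depletion cannot be told apart here. Of 14 endothelial markers, 7 averaged above the median signal of all probe sets (5.95 log2 units), with means of 7.78 for Ecscr, 7.62 for Egfl7, 7.53 for Kdr, 7.35 for Emcn and 6.65 for Lyve1, and 7 below it, among them the lymphatic factor gene Prox1 at 3.74 to 4.17 and Pecam1 at 4.76 to 5.36 over the arrays. Of 17 leukocyte markers, 7 averaged above it, among them Csf1r at 9.70, Fcgr2b at 8.65 and Cd14 at 7.95. The other 10 averaged below it, among them the pan-leukocyte gene Ptprc at 4.01 to 4.28. Of 13 fibroblastic reticular cell markers, 10 averaged above it, such as Col1a2 at 14.22 and Pdgfra at 12.26, and 3 below, such as Tnfsf11 at 4.69. Of all 18193 genes, 11922 averaged above it and 6271 below.

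Epithelial sheets are held together by adherens junctions, tight junctions and desmosomes. Desmosomes join the keratin filaments of neighbouring cells through cadherins (desmogleins and desmocollins) and the plaque proteins plakoglobin, plakophilins and desmoplakin. In stratified epithelium the outermost cells replace their membrane by a cornified envelope, in which transglutaminases crosslink involucrin, small proline-rich proteins, late cornified envelope proteins, envoplakin, periplakin and sciellin. Several of these genes are also active outside the epidermis, for example in mesothelium.

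Most of the 36 genes differed little between the groups, while 3 genes stood far below the rest in the metastatic group. Perp, Scel and Lce1f differed by -2.64, -2.59 and -2.54 log2 units. The other 33 genes ranged from -0.70 to 0.39, with a median of -0.04. Of all 36, 23 were lower in the metastatic group and 13 higher, with a median of -0.06, where 50.1% of all genes were lower and their median was -0.00034. At least 2-fold lower signal in the metastatic group was found for 3 members and at least 2-fold higher signal for 0, beside 0.704% and 0.242% of all genes. Both metastatic arrays lay below both non-metastatic arrays for 10 members and above them for 3, where 17.3% and 17.2% of all genes did so. Together that is 13 of 36 members, beside 34.6% of all genes. limma with Benjamini-Hochberg adjustment over all 45037 probe sets called 0 of the 36 members (0.0% of all genes), and the smallest adjusted p on the array was 0.0863. At an unadjusted p under 0.05 there were 5 members lower and 1 higher, beside 4.07% and 2.63% of all genes, and 6.06% of probe sets in either direction. Nothing is read from these counts about the list, since the comparison was used to choose it. With so few arrays an exact permutation test, two-sided, reaches no p lower than 0.33.

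**Figure D1:**
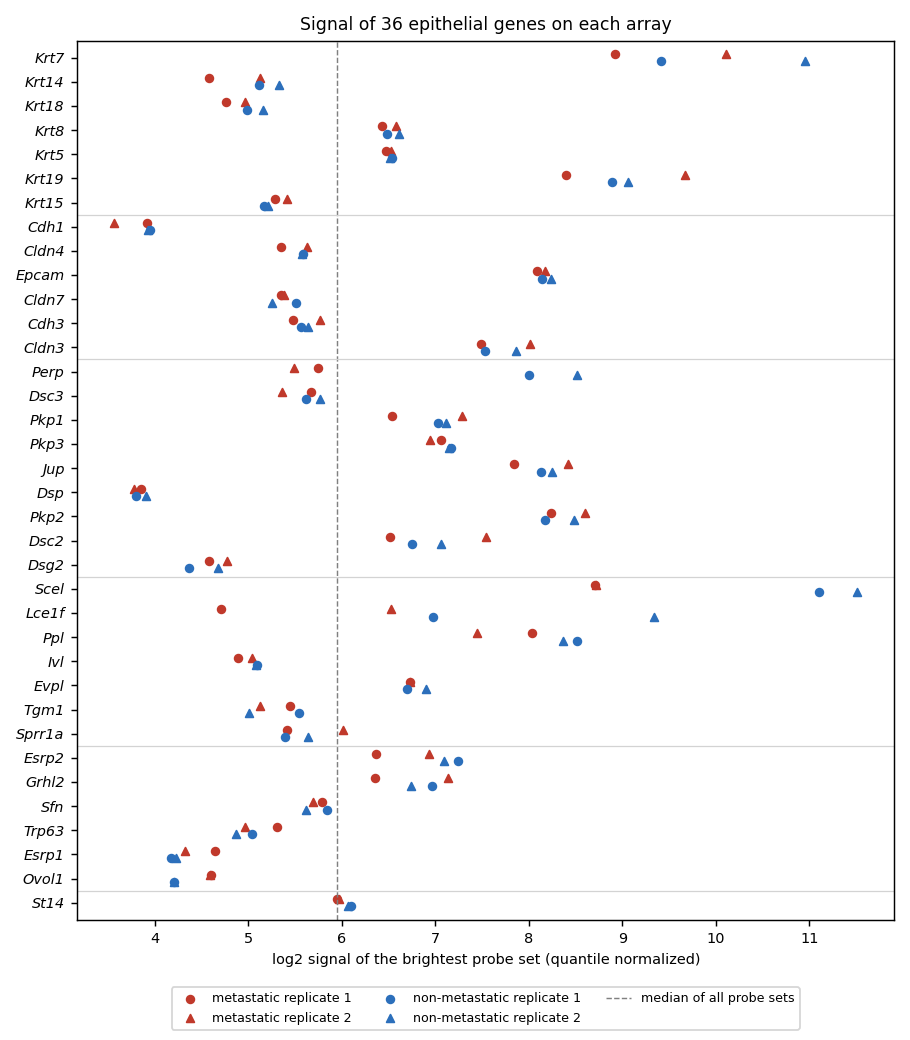
Log2 signal (horizontal axis) of the brightest probe set of each of 36 genes (rows, grouped by role) on the 4 arrays; red marks metastatic, blue non-metastatic, circles replicate 1 and triangles replicate 2, and the dashed line is the median of all probe sets (5.95). Red and blue marks lie apart by more than 2 log2 units on average for Perp, Scel and Lce1f, and close together or mixed for most other genes.

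Scel encodes sciellin, a precursor protein of the cornified envelope with LIM-domain and repeat regions. Its log2 signal was 8.71 and 8.72 on the metastatic arrays, against 11.10 and 11.51 on the non-metastatic arrays. The groups did not overlap, and the 2 metastatic preparations were almost equal. Scel averaged 8.71 ± 0.01 in metastatic and 11.30 ± 0.29 in non-metastatic preparations (SD, n = 2 each). The difference was -2.59 (SE 0.16), which is a 6.03-fold lower signal. The gene's other probe set was dim on all arrays, with a mean of 3.99, and differed by -0.14 (SE 0.11). With any single array left out the difference of the bright probe set stayed between -2.80 and -2.38.

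Lce1f encodes a late cornified envelope protein, 1 of a family of small proteins made late in keratinocyte differentiation. Its signal was 4.71 and 6.52 on the metastatic arrays, against 6.98 and 9.34 on the non-metastatic arrays. The groups did not overlap, but the preparations of each group lay far apart, by 1.81 in the metastatic and 2.36 in the non-metastatic group, and the highest metastatic array was only a little below the lowest non-metastatic one. The difference was -2.54 (SE 0.89), and it ranged from -3.72 without non-metastatic replicate 1 to -1.36 without non-metastatic replicate 2, with -1.64 without metastatic replicate 1. The second probe set of Lce1f had 4.37 and 4.38 on the metastatic arrays, against 4.72 and 5.69 on the non-metastatic arrays, a difference of -0.83 (SE 0.30). Both probe sets were thus lower in the metastatic group and highest on non-metastatic replicate 2.

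The remaining cornified envelope genes differed less. Ppl, which encodes periplakin, a plakin that links the envelope to desmosomes and intermediate filaments, had 8.04 and 7.44 on the metastatic arrays, against 8.52 and 8.37 on the non-metastatic arrays. Its groups did not overlap and differed by -0.70 (SE 0.21), or 1.63-fold, with -0.41 without metastatic replicate 2. Its partner envoplakin, encoded by Evpl, had 6.73 on both metastatic arrays, against 6.69 and 6.90 on the non-metastatic arrays (difference -0.07, SE 0.12). Involucrin, an early scaffold of the envelope encoded by Ivl, differed by -0.12 (SE 0.11). The small proline-rich protein gene Sprr1a stood at 0.20 (SE 0.22), and Tgm1, whose transglutaminase crosslinks the envelope, at 0.01 (SE 0.21). The signals of Sprr1a, Ivl and Tgm1 averaged less than the median of all probe sets. Evpl, Sprr1a and Tgm1 thus differed by less than their SE.

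**Figure D2:**
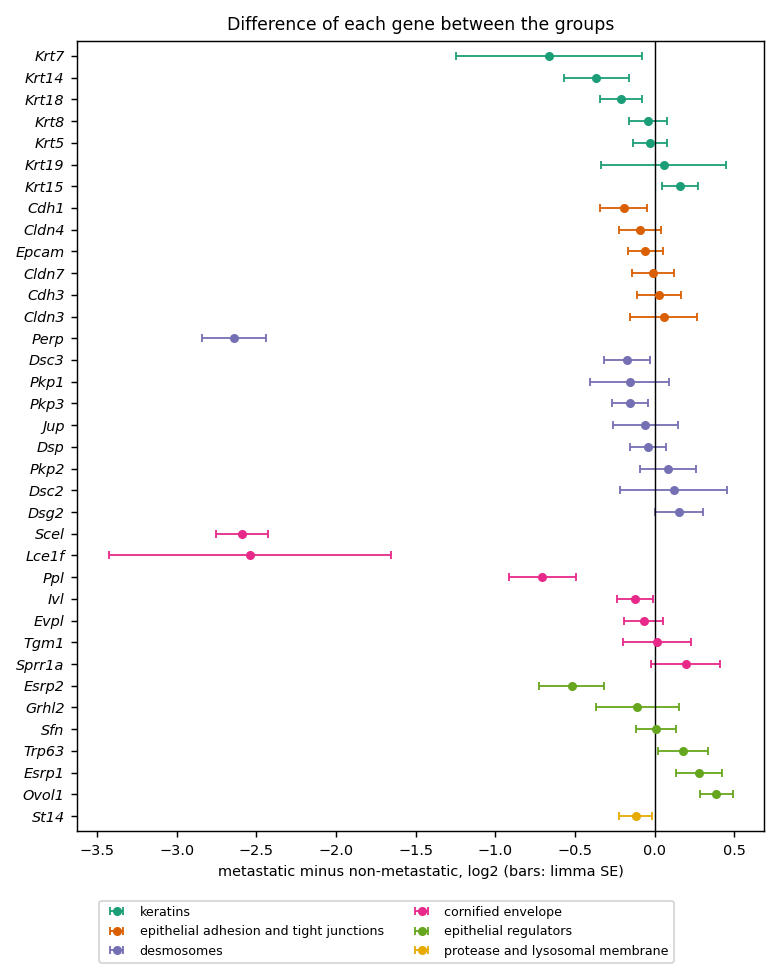
Difference between the groups (metastatic minus non-metastatic, log2, horizontal axis) for each gene, with bars for limma's SE and colours for the role. Perp, Scel and Lce1f lie at -2.64, -2.59 and -2.54, with a wide bar for Lce1f, and every other gene lies between -0.70 and 0.39.

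Promoter windows of RefSeq (GRCm38.p6) were used for 16 of the 36 genes, which do not include Perp and Lce1f. The windows ran from 250 bases before to 50 after a gene's start. They were searched on both strands for the Grainyhead-like motif AACCGGTT, for the AP-1 motif TGANTCA and for the E-box CACCTG, which repressors of the Snail and ZEB families are known to bind in epithelial promoters. The windows of Scel, Ivl and Sprr1a are shown because they belong to 3 cornified envelope genes with an AP-1 match, of which only Scel differed by more than 2-fold. Those of Krt7 and Cldn4 are shown for the E-boxes beside the start of a keratin and a claudin gene. Capitals mark the matches.
Scel, chr14:103513091-103513390, plus strand: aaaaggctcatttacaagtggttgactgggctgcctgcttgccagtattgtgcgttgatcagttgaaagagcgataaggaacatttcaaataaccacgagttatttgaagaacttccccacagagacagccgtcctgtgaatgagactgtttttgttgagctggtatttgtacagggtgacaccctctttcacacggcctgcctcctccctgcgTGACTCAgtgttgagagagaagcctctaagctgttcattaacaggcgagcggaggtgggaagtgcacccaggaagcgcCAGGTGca
Ivl, chr3:92573686-92573985, minus strand: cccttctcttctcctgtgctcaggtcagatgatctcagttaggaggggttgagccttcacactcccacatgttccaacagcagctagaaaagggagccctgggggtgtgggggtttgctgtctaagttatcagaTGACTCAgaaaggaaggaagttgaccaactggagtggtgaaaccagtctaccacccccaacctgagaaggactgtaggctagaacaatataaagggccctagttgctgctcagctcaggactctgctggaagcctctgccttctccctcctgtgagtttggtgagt
Sprr1a, chr3:92485832-92486131, minus strand: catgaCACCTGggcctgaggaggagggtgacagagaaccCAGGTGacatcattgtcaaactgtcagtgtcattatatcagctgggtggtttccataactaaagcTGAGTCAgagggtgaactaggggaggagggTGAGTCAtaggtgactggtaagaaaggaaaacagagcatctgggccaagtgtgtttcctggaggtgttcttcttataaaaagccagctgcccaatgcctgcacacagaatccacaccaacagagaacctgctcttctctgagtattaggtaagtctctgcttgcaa
Krt7, chr15:101412153-101412452, plus strand: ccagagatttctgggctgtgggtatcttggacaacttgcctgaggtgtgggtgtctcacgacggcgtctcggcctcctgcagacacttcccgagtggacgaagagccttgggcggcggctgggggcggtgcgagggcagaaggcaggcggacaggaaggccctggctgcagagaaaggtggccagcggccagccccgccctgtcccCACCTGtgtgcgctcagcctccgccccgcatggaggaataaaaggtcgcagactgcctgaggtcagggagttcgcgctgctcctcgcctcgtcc
Cldn4, chr5:134946885-134947184, minus strand: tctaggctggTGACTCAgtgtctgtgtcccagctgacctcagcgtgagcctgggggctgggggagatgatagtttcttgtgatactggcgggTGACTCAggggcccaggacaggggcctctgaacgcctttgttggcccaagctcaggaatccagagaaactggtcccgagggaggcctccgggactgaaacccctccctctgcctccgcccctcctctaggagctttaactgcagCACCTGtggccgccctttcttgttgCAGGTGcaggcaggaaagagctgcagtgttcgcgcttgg

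In Scel the AP-1 match begins 36 bases before the start site and the E-box lies at base 43 after it. Ivl has 1 AP-1 match, Sprr1a has 2 of each motif and Cldn4 likewise, and Krt7 has 1 E-box, 44 bases before the start. Over the 18 windows of the 16 genes, AP-1 matches were found in 4 (22.2%), beside 7.81% of all 32851 windows. E-boxes were found in 12 (66.7%), beside 20.2% of all windows, in Cldn3, Cldn4, Cldn7, Dsp, Epcam, Krt5, Krt7, Krt8, Krt18, Scel, Sfn and Sprr1a. The Grainyhead-like motif was in 0 of the 18 and in 0.146% of all. No 2 matches overlapped. The 12 genes with an E-box had a median difference of -0.04, and the 4 genes with a window and none had -0.09. A match describes letters in the window and does not show that a factor bound there.

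Perp was the only desmosome gene of the list with a difference over 2-fold. It encodes a tetraspan membrane protein of desmosomes whose gene is a target of p53 and p63. Its signal was 5.75 and 5.49 on the metastatic arrays, under the median of all probe sets, against 8.00 and 8.52 on the non-metastatic arrays. The groups were separated by more than the distance between any 2 preparations of a group. Perp averaged 5.62 ± 0.18 in metastatic and 8.26 ± 0.37 in non-metastatic preparations (SD, n = 2 each). The difference was -2.64 (SE 0.20), a 6.25-fold lower signal, and lay between -2.90 and -2.38 with any single array left out. Perp has 1 probe set on the array.

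The 8 other desmosome genes lay between -0.17 and 0.16. The plaque genes Jup (plakoglobin), Dsp (desmoplakin) and Pkp2 (plakophilin) stood at -0.06 (SE 0.20), -0.04 (SE 0.11) and 0.09 (SE 0.18). Jup had 7.84 and 8.42 on the metastatic arrays, against 8.13 and 8.25 on the non-metastatic arrays, and Pkp2 had 8.23 and 8.60 on the metastatic arrays, against 8.18 and 8.49 on the non-metastatic arrays. In both genes the metastatic arrays lay around or among the non-metastatic ones. Pkp1 and Pkp3, further plakophilins, differed by -0.16 each (SE 0.25 and 0.11), and only for Pkp3 did the groups not overlap. The dimmer second probe set of Pkp3 stood at 0.03 (SE 0.15). Of the desmosomal cadherins, Dsc2 stood at 0.12 (SE 0.34), Dsc3 at -0.17 (SE 0.15) and Dsg2 at 0.16 (SE 0.15). The 2 metastatic preparations differed from each other in Dsc2 by 1.03, with 6.51 and 7.55, against 6.76 and 7.06 in the non-metastatic group, and its second probe set behaved alike. Dsp was dim, at 3.78 to 3.91 on all arrays. Its other probe sets, also dim, stood at 0.18 (SE 0.14) and 0.28 (SE 0.16).

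Keratins form the intermediate filaments of epithelia, with Krt5, Krt14 and Krt15 in basal cells of stratified layers and Krt7, Krt8, Krt18 and Krt19 in simple epithelia and mesothelium. Krt7 had 8.93 and 10.11 on the metastatic arrays, against 9.41 and 10.95 on the non-metastatic arrays. The groups overlapped, and replicate 2 of each group was higher than replicate 1 by over a log2 unit. The difference of -0.66 (SE 0.59) became -0.07 when metastatic replicate 1 was left out and -1.25 when metastatic replicate 2 was. It became -1.44 when non-metastatic replicate 1 was left out and turned to 0.11 when non-metastatic replicate 2 was. Krt19 had 8.40 and 9.67 on the metastatic arrays, against 8.89 and 9.06 on the non-metastatic arrays, so that the metastatic preparations enclosed the non-metastatic ones (difference 0.06, SE 0.39). It stood at 0.69 without metastatic replicate 1 and at -0.58 without metastatic replicate 2.

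Krt8, the type II partner of Krt18, had 6.43 and 6.58 on the metastatic arrays, against 6.48 and 6.61 on the non-metastatic arrays, a difference of -0.04 (SE 0.12). Its dimmer probe sets ran both ways, at -0.43 (SE 0.21) and 0.21 (SE 0.12). Krt18 stood at -0.21 (SE 0.13) without overlap of the groups and was below the median signal. Of the basal keratins, Krt5 differed by -0.03 (SE 0.11), Krt15 by 0.16 (SE 0.11) and Krt14 by -0.37 (SE 0.20). The value of Krt14 comes from a probe set whose name marks it as matching more than 1 transcript. Its brighter unmarked probe set gave 0.09 (SE 0.16) and its dimmer unmarked one -0.06 (SE 0.12). Of 13 further keratins, 6 were lower, 7 were higher and the median was 0.0027. The groups did not overlap for 2 of them, Krt1 at 0.23 (SE 0.13) and Krt4 at 0.11 (SE 0.11). The probe set of Krt4 carries the mark described for Krt14.

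The 6 adhesion and tight junction genes lay between -0.19 and 0.06. Epcam, a surface glycoprotein of simple epithelia, had 8.09 and 8.17 on the metastatic arrays, against 8.14 and 8.23 on the non-metastatic arrays, a difference of -0.06 (SE 0.11). Its brightest probe set carries the mark described for Krt14. The second, whose suffix marks shared variants of a gene, was dim at a mean of 4.82. E-cadherin, the adherens junction protein encoded by Cdh1, was dim on all arrays, with 3.92 and 3.57 on the metastatic and 3.95 and 3.93 on the non-metastatic arrays (difference -0.19, SE 0.15). P-cadherin (Cdh3) stood at 0.03 (SE 0.14), and the claudin genes Cldn3, Cldn4 and Cldn7 at 0.06 (SE 0.21), -0.09 (SE 0.13) and -0.01 (SE 0.13).

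Among the regulators of epithelial state, the differences were small and ran both ways. Esrp2, an epithelial splicing factor, had 6.37 and 6.93 on the metastatic arrays, against 7.24 and 7.09 on the non-metastatic arrays. The difference was -0.52 (SE 0.20) without overlap, and -0.24 without metastatic replicate 1. The second probe set of Esrp2, dimmer at a mean of 5.09, differed by -0.03 (SE 0.17), and the mean of its probe sets by -0.28. Esrp1, a relative of Esrp2, stood at 0.28 (SE 0.14) and was dim. Ovol1, a zinc finger factor of epithelial differentiation, had 4.60 and 4.59 on the metastatic arrays, against 4.20 and 4.21 on the non-metastatic arrays, the most positive difference of the list at 0.39 (SE 0.11), at signals under the median of all probe sets. Grhl2, a Grainyhead-like factor that maintains epithelial junction genes, differed by -0.11 (SE 0.26), Trp63, the master factor of stratified epithelium, by 0.18 (SE 0.15), and Sfn, the epithelial 14-3-3 protein that p53 induces, by 0.01 (SE 0.13). For Trp63 the brighter unmarked probe set gave -0.19, the dimmer unmarked one -0.06 and a further marked one 0.01. St14, the membrane protease matriptase, stood at -0.12 (SE 0.11).

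Of the 36 representative probe sets, 17 averaged less than the median of all probe sets and 19 more. Of all 18193 genes, each read from its brightest probe set, 6271 averaged less and 11922 more. Among 33 other probe sets of the 36 genes, 11 differed in the opposite direction to the representative. Without detection calls a dim probe set cannot be called absent, and probe sets of different genes cannot be ranked by signal. In 27 of the 36 genes the largest distance between 2 preparations of a group exceeded the difference between the groups. The 9 others were Perp, Scel, Lce1f, Ppl, Krt15, Krt18, Pkp3, Ovol1 and St14. The same share was not counted over all genes, so nothing is read from these 2 counts about the list. In such bulk preparations fewer cells of a type and less RNA per cell cannot be told apart.

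The genes next to the 3 were examined to see whether a stretch of chromosome was lower. Lce1f lies in the epidermal differentiation complex, among the other late cornified envelope genes. Of the 5 measured genes on each side, Lce1d and Lce1g, its direct neighbours, stood at 0.10 (SE 0.11) and -0.09 (SE 0.11). The most negative values were -0.55 (SE 0.32) for Lce1i, -0.47 (SE 0.23) for Lce1h and -0.44 (SE 0.31) for Kprp. The probe sets of Lce1d, Lce1h and Lce1i carry the mark described for Krt14. Over 10 other Lce1 genes, 5 were lower, 5 were higher and the median was 0.0024, and over 8 Sprr genes other than Sprr1a the median was -0.10. Next to Scel, Mycbp2 and Slain1 stood at -0.31 (SE 0.22) and 0.05 (SE 0.17), and Lmo7, which encodes a LIM-domain protein of cell junctions and lies the third measured gene away, at -0.85 (SE 0.16). Next to Perp, Arfgef3 and Tnfaip3, an inhibitor of NF-kappaB signalling, stood at 0.06 (SE 0.11) and -0.54 (SE 0.11). No neighbour within 5 measured genes of the 3 differed by 2-fold. These genes were chosen after the values of the 3 were known.

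**Figure D3:**
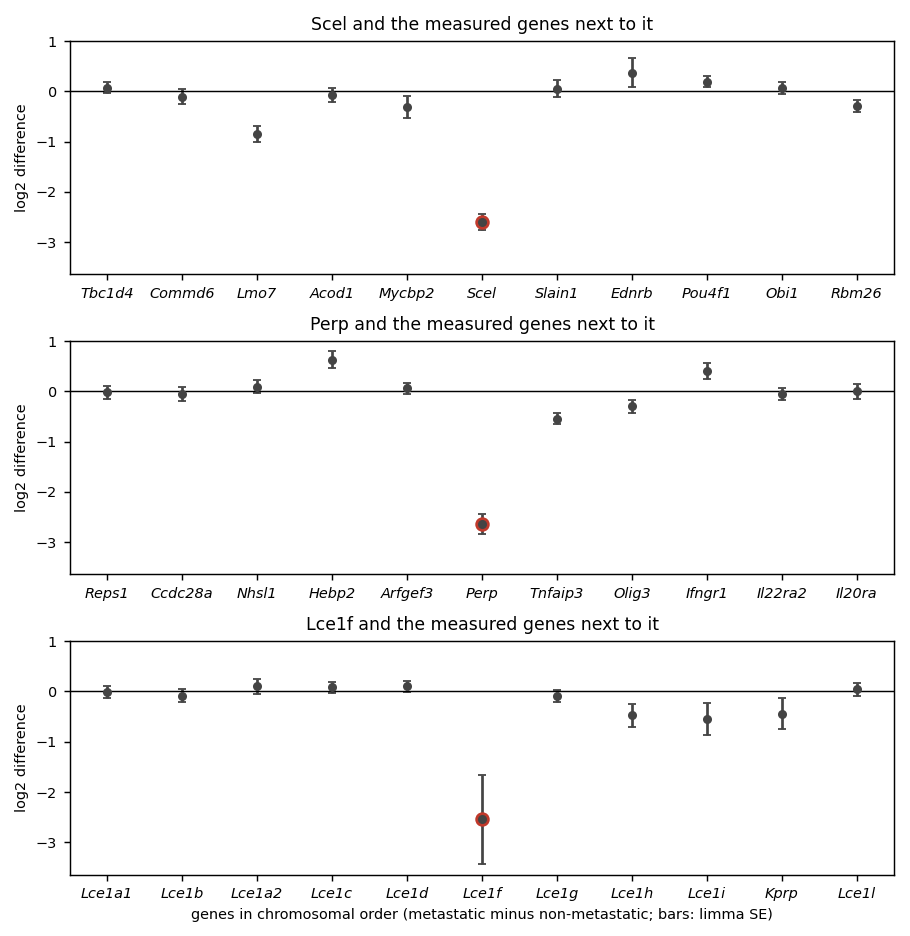
Difference between the groups (metastatic minus non-metastatic, log2, vertical axis, bars for limma's SE) of Scel, Perp and Lce1f (red) and of the 5 measured genes on either side in chromosomal order. The neighbours lie between -0.85 and 0.63, above each of the 3 genes.

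Further genes of the same structures and markers of cell types that the preparations could hold were read in the same way, from lists drawn up with earlier results of these data known. Counts are set beside the background above, and 0 genes of these lists passed limma over all probe sets. Of 26 other tight and adherens junction genes, 19 were lower and 7 higher, and the median was -0.09. Cgnl1, which encodes paracingulin, had 8.78 and 9.18 on the metastatic arrays, against 9.72 and 10.14 on the non-metastatic arrays (difference -0.95, SE 0.20). The tight junction gene Ocln (occludin) stood at -0.32 (SE 0.16), Ctnnb1 (beta-catenin) at 0.20 (SE 0.11) and Tjp3 at 0.19 (SE 0.12). Of 12 other desmosome and hemidesmosome genes, 8 were lower and 4 higher, and the median was -0.11. Among them were the laminin gene Lama3 at -0.68 (SE 0.14) and the hemidesmosomal collagen gene Col17a1 at 0.39 (SE 0.20). The integrin gene Itga6 stood at -0.32 (SE 0.16) and the tetraspanin gene Cd151 at -0.32 (SE 0.12). The probe set of Cd151 carries the mark described for Krt14. Of 39 other cornified envelope genes, 22 were lower and 17 higher, and the median was -0.01. In that list Crct1 stood at -1.08 (SE 0.52), Sbsn (suprabasin) at -0.82 (SE 0.26), Cdsn (corneodesmosin) at 0.54 (SE 0.13) and Sprr2h at -0.32 (SE 0.12).

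Of 14 further epithelial transcription and splicing factors, 8 were lower, 6 were higher and the median was -0.01, with Klf4, a factor of barrier formation, at -0.52 (SE 0.16), Grhl1 at -0.33 (SE 0.12), and Elf5 and Ovol2 at 0.14 each (SE 0.12 and 0.11). Of 18 epithelial surface and protease genes, 9 were lower, 9 were higher and the median was 0.02, and the sialoglycoprotein gene Cd24a had 8.33 and 8.55 on the metastatic arrays, against 8.84 and 10.60 on the non-metastatic arrays (difference -1.28, SE 0.54). Lad1 (ladinin) stood at 0.26 (SE 0.15), Epn3 at -0.26 (SE 0.13) and Tmem30b at -0.22 (SE 0.11). Since Perp and Sfn are p53 targets, 18 other targets were read: 16 were lower, 2 were higher and the median was -0.17. The BH3-only gene Pmaip1 stood at -1.21 (SE 0.42), the death receptor gene Fas at -0.87 (SE 0.21), Btg2 at -0.65 (SE 0.21) and the cell cycle inhibitor gene Cdkn1a at -0.24 (SE 0.14). Of 11 mesenchymal regulators and markers, which include the E-box repressors, 6 were lower, 5 were higher and the median was -0.04. Snai1 and Snai2 stood at 0.37 (SE 0.13) and 0.35 (SE 0.14), at mean signals of 9.60 and 11.52. The probe set of Snai2 carries the mark described for Krt14. Zeb1 and Zeb2 ran the other way, at -0.27 (SE 0.16) and -0.62 (SE 0.37), at mean signals of 10.27 and 8.95. For both Zeb genes the groups overlapped. The cadherin genes Cdh11 and Cdh2 (N-cadherin) stood at -0.64 (SE 0.17) and -0.58 (SE 0.22).

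Markers of other cell types are given beside Scel, Perp and Lce1f, and their part in these results was not tested. Some of these genes were as far down in the metastatic group as the 3. The endothelial list held 3 genes at least 2-fold lower, the smooth muscle list 4, and the mesothelial, leukocyte and fibroblastic reticular lists 1 each.

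Of 14 endothelial markers, 10 were lower, 4 were higher and the median was -0.13. Lyve1, a hyaluronan receptor of lymphatic endothelium, had 6.32 and 4.23 on the metastatic arrays, against 8.26 and 7.80 on the non-metastatic arrays (difference -2.76, SE 0.64). Emcn (endomucin), a sialomucin of endothelium, had 6.50 and 5.66 on the metastatic arrays, against 8.77 and 8.45 on the non-metastatic arrays (difference -2.53, SE 0.29). Both genes were thus lower without overlap, by about as much as Scel, Perp and Lce1f. Ecscr stood at -1.18 (SE 0.26) and Icam2 at -0.62 (SE 0.15), also without overlap, whereas Kdr, the VEGF receptor gene, stood at 0.12 (SE 0.11). The summed linear signal of the list was 1077 and 1030.3 on the metastatic arrays, against 2086 and 1554 on the non-metastatic arrays. Ecscr, the brightest of the list, made 12.1% to 20.4% of it, and the high non-metastatic signals of Lyve1 and Emcn weigh in it too. The differences of Egfl7, Tek, Tie1, Esam and Robo4 lay between -0.08 and 0.11.

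Of 13 smooth muscle markers, 12 were lower, 1 was higher and the median was -0.61. The actin gene Actg2 had 7.04 and 6.93 on the metastatic arrays, against 8.84 and 8.85 on the non-metastatic arrays (difference -1.86, SE 0.11). Myocd (myocardin), a coactivator of smooth muscle genes, stood at -1.23 (SE 0.18), Cnn1 (calponin) at -1.06 (SE 0.33) and Mcam at -1.05 (SE 0.25). The sums were 18346 and 29388 in the metastatic group, against 36801 and 34929.8 in the non-metastatic group, of which Acta2 made 62.5% to 70.4%.

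Of the mesothelial markers, 11 of 15 were lower, 4 were higher and the median was -0.19. Msln (mesothelin) had 5.62 and 6.44 on the metastatic arrays, against 6.47 and 8.48 on the non-metastatic arrays (difference -1.44, SE 0.65), Nkain4 stood at -0.63 (SE 0.11) and Slpi, a secreted protease inhibitor gene, at -0.56 (SE 0.24). The mesothelial transcription factor gene Wt1 ran the other way, with 5.93 and 6.40 on the metastatic arrays, against 5.44 and 4.89 on the non-metastatic arrays (difference 1.00, SE 0.24). Upk3b and Lrrn4, also mesothelial, were dim, at 5.08 to 5.26 and 3.91 to 4.17 over all arrays. The summed signal was 11511 and 8743 on the metastatic arrays, against 10803 and 10313 on the non-metastatic arrays, but Efemp1 alone made 80.9% to 90.1% of it. Without Efemp1 the sums were 1142 and 1271 in the metastatic group, against 2062 and 1663 in the non-metastatic group.

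Of 14 keratinocyte and skin markers, 6 were lower, 8 were higher and the median was 0.0056. By mean signal, 11 lay below the median of all probe sets and 3 above. Krt17, Krtdap and Flg reached at most 4.37, 4.50 and 3.90 on any array. The 3 above were Krt10 at 6.39 to 7.21, Krt6a at 6.91 to 7.22 and Sbsn at 8.20 to 9.60 over the arrays. Beside Sbsn, Col17a1 and Krt1, given above, the groups did not overlap for Lypd3 at 0.23 (SE 0.14), among others. The sums were 1007 and 802 in the metastatic group, against 1309 and 1056 in the non-metastatic group, of which Sbsn made 36.7% to 59.1%. Mammary epithelial markers, read because the axillary node lies near mammary fat, were lower for 9 of 13 genes with a median of -0.01 and sums of 757 and 738 on the metastatic arrays, against 839 and 777 on the non-metastatic arrays. Trps1 stood at -0.57 (SE 0.25), Lcn2 at -0.54 (SE 0.16) and the casein gene Csn3 at 0.28 (SE 0.12), and the casein gene Csn2 was dim at 4.56 to 4.80.

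Mature dendritic and Langerhans cell markers were lower for 9 of 14 genes with a median of -0.07. Cd80, a costimulatory ligand, stood at -0.62 (SE 0.23), the chemokine gene Ccl17 at -0.35 (SE 0.14), Cd207 (langerin) at 0.17 (SE 0.14) and Cd83 at -0.15 (SE 0.12). Their sums of 8894 and 9957 on the metastatic arrays, against 8308 and 9122 on the non-metastatic arrays, were 89.1% to 92.1% Fscn1. Without Fscn1 the sums were 764 and 788 in the metastatic group, against 902 and 865 in the non-metastatic group. Leukocyte markers were lower for 12 of 17 genes with a median of -0.06 and sums of 2107 and 2030.4 on the metastatic arrays, against 2689 and 2571 on the non-metastatic arrays. The myeloid lysozyme gene Lyz2 had 6.06 and 6.16 on the metastatic arrays, against 8.29 and 6.86 on the non-metastatic arrays (difference -1.47, SE 0.44). Csf1r, Fcgr3 and Tyrobp, also myeloid, stood at -0.54 (SE 0.16), -0.52 (SE 0.17) and -0.28 (SE 0.14). The myeloid genes did not all fall: Itgam was higher without overlap, at 0.28 (SE 0.14) and a dim mean of 4.38, and Adgre1 stood at -0.06 (SE 0.17).

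Fibroblastic reticular cell markers were lower for 8 of 13 genes with a median of -0.02 and sums of 62574 and 64441 on the metastatic arrays, against 62709.6 and 67789.5 on the non-metastatic arrays. The chemokine gene Cxcl13 had 9.84 and 7.58 on the metastatic arrays, against 10.48 and 10.83 on the non-metastatic arrays (difference -1.95, SE 0.69). The cytokine gene Il7 stood at -0.81 (SE 0.18) and the collagen gene Col3a1 at -0.21 (SE 0.14). Pdpn, the gene of the selection marker, had 10.89 and 10.83 on the metastatic arrays, against 10.35 and 10.35 on the non-metastatic arrays (difference 0.51, SE 0.11).

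**Figure D4:**
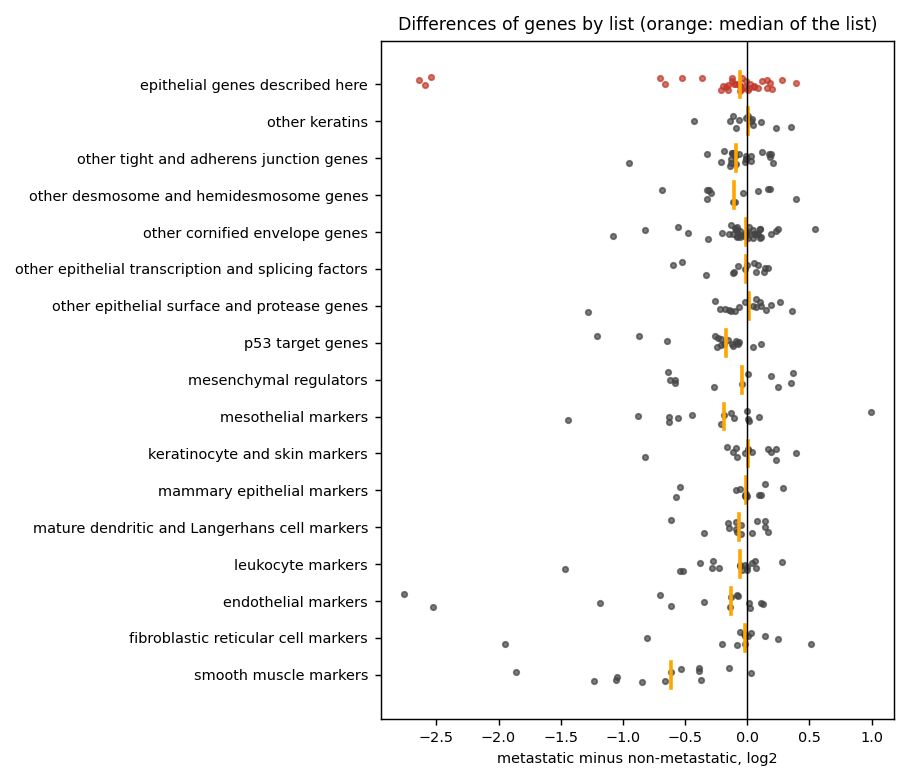
Difference between the groups (metastatic minus non-metastatic, log2, horizontal axis) of each gene in the list described here (red) and in 16 other lists (grey), with the median of each list in orange. The red list has 3 genes near -2.6 and a median of -0.06. The endothelial list reaches as low, with Lyve1 at -2.76 and Emcn at -2.53, and the smooth muscle list has the lowest median, -0.61.

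Some of the genes named above had their highest signal on non-metastatic replicate 2. They were picked after their values were seen, and the share of all genes highest on that array was not counted. Lce1f (9.34), Krt7 (10.95), Msln (8.48), Crct1 (8.95), Cd24a (10.60) and Pmaip1 (9.90) were each higher there than on the other 3 arrays. On non-metastatic replicate 1 the same genes had 6.98, 9.41, 6.47, 7.22, 8.84 and 8.56. Scel and Perp were high on both non-metastatic arrays. Other members were highest elsewhere, such as Krt19 (9.67) on metastatic replicate 2 and Ppl (8.52) on non-metastatic replicate 1. The summed linear signal of the 36 genes was 3975 and 5619 on the metastatic arrays, against 6740 and 9599.8 on the non-metastatic arrays. In these sums the brightest probe sets, such as Scel and Krt7, weigh most.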

How the data were processed

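Gene expression was measured on 4 Affymetrix arrays, 2 per group, from total RNA labelled in a single amplification cycle, per the labels' protocols. The deposited values are log2 signals per probe set, as their range of 3.10 to 14.81 without controls shows; the software that made them is not given in the sources used here. The array medians differed by up to 0.116, so the 45037 probe sets left after removing 64 controls were quantile normalized with limma 3.58.1 in R 4.3.3. Metastatic minus non-metastatic was fitted with lmFit and eBayes (2 residual and 3.71 prior degrees of freedom), with Benjamini-Hochberg adjustment over all probe sets and a threshold of 0.05. The annotation gave 1 gene for 34945 probe sets, several for 932 and none for 9160. An SE is limma's moderated one, and an SD is over 2 arrays.

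The members and lists were chosen with earlier results of these data known. All members are named, with up to 4 genes of each other list that had the largest differences without overlap of the groups; a few further markers and neighbouring genes were named after their values were seen. Alternatives were the deposited values, median centring, an intensity trend with robust moderation, probe sets averaged per gene, brighter or unmarked probe sets only, the replicate number as a block and each array left out. The fit was also run on simulated data with independent noise drawn from its own prior. Such a run checks the code and cannot show how the fit does on these arrays. The number of arrays limits the precision. Plots were drawn with Python 3.11.15 and matplotlib 3.10.9.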

Additional observations from a re-analysis of the deposited data

How the results depend on the processing

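limma called 0 of 45037 probe sets, with 2731 at an unadjusted p under 0.05. It called 5, all lower and including Scel and Perp, with an intensity trend and robust moderation, and 145 with the replicate block (120 lower and 25 higher, among them Scel, Perp and Lce1f). With single arrays left out it called 0 to 67, the 67 without metastatic replicate 1, Scel among them. The labels do not state that replicate numbers pair the preparations, which share only a number; the deviations of same-numbered arrays from their group means correlated at 0.248. Members without overlap of the groups numbered 13, beside 34.6% of all genes, and 7 of 19 among brighter probe sets, where fewer genes were tested, beside 36.6%. They numbered 21 to 27 with an array left out, as 2 arrays overlap 1 less easily, beside 58.9% to 77.5% of all genes. The median difference of the members, -0.06, stayed between -0.12 and -0.01. Leaving out an array or adding a trend or block cannot move a difference past the SD between replicates. Of the 156 member differences recomputed under the other alternatives, 11 moved by more than that, among them Scel to -1.36 with the mean of its probe sets. Many of the 156 could not move either. The 19 among brighter probe sets kept their values, as did the 18 members with 1 probe set under averaging. With unmarked probe sets only, members with an unmarked representative kept theirs. The share of 11 in 156 is therefore no measure of stability. With single arrays left out 19 members kept their sign and 17 did not; Scel, Perp and Lce1f kept theirs. Dim probe sets limit what can be said of 17 members.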
